A study of Mus musculus with 12 samples.

Results

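The Mir192, Mir194 and Mir215 family is a group of 4 miRNA genes, Mir192, Mir194-1, Mir194-2 and Mir215, that lie as a pair of short clusters in the mouse genome. The 4 genes were selected by name from the 32101 features of a small RNA table, of which 1577 are annotated miRNAs, because earlier results of these data placed Mir192 among the largest falls between Dicer/Dnmt1 KO and Dnmt1 KO cells. That contrast is therefore given as a description, without a test. All 4 genes had at least 1 read, as did 374 of the 1577 miRNA features, but only Mir192 had enough reads to be tested.

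Small RNAs of 20 to 24 nt were sequenced from mouse embryonic stem cells (ESCs) in 12 libraries, all labelled with the background strain E14. The WT group (genotype label Wildtype) had 6 libraries from 3 cultures, Dnmt1 KO (Dnmt1 -/-) had 2 libraries from 1 culture and Dicer/Dnmt1 KO (Dicer/Dnmt1 -/-) had 4 libraries from 2 cultures, where libraries whose titles differ only in the letter A or B are called a culture. Dnmt1 is the maintenance DNA methyltransferase, and DICER is the nuclease that cuts miRNA hairpins into mature miRNAs. The comparisons ask how the small RNAs change when DNA methylation is lost and how they change when DICER is lost as well. Per the study's methods, the Dnmt1 alleles were conditional and deleted with a tamoxifen-induced Cre. Lines that lack Dicer as well were edited with CRISPR and grown from single-cell colonies. The study reports small RNA sequencing of a line with conditional Dicer deletion. Its methods also describe a line with constitutive Dicer deletion, and the labels do not say which line was used here. Those methods describe the Dnmt1 line as C57BL/6 whereas the labels give E14, so a difference of line between WT and the knockouts cannot be told apart from the genotype. The labels do not say whether A and B were separate cultures or repeat libraries, so p-values may measure technical spread, and Dnmt1 KO has no replicate culture.

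miR-192 and miR-215 are close relatives with the same seed, the stretch at the 5′ end that pairs with target mRNAs, whereas miR-194 has a different seed and travels with them in both clusters. The family is best known from liver, intestine and kidney, where its members are abundant, and its transcription is promoted by p53 and by hepatocyte nuclear factors. Like other canonical miRNAs, its members are cut from the primary transcript by DROSHA and then from the hairpin by DICER.

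The mature sequences are shown because they define which members are alike and which reads can be told apart. They come from RefSeq (build GRCm38.p6), which held all 4 genes, are written 5′ to 3′, and carry the seed (bases 2 to 8) in capitals. First come the arms with the shared seed.
miR-192-5p: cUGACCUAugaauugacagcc
miR-215-5p: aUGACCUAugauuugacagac
The next is the miR-194 arm that both Mir194 genes encode.
miR-194-5p: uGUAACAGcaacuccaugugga
The opposite arms follow.
miR-192-3p: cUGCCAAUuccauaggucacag
miR-215-3p: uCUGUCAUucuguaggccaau
miR-194-1-3p: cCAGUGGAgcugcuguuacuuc
miR-194-2-3p: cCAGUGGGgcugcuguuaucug

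miR-192-5p and miR-215-5p were identical at 18 of 21 bases, and no other mature miRNA of the RefSeq table had their seed. Counted from 1 at the 5′ end of miR-192-5p, they differed by C1A, A12U and C20A, all outside the seed. The 3p arms of the Mir194 genes were identical at 18 of 22 bases and differed by A8G, C19U, U20C and C22G, counted from the 5′ end of miR-194-1-3p. The first of these lies at the last base of the seed. In the NCBIM37 genome, the build of the table, miR-194-5p had 2 exact places, 1 in each Mir194 gene, while each of the other 6 mature sequences had 1. A read of miR-194-5p therefore cannot be assigned to a single gene, and how reads with several places were counted is not stated. By RefSeq, 24 pairs of miRNA genes in the table shared a mature sequence, and the genome was not searched for these. In 8 pairs both genes had reads, and 2 pairs (8.33%) had at least 100 reads over both genes. Of 345 miRNA genes that shared no mature sequence, 89 (25.8%) had at least 100 reads. These are reads of whole genes with both arms, so they do not single out reads of a shared sequence. The part that read placement plays in the low Mir194 values was not tested.

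Mir194-2 lies at chr19:6264643-6264728 and Mir192 at chr19:6264844-6264932 (NCBIM37, plus strand), 115 nt apart and in no annotated gene. The nearest features with reads were Atg2a, an autophagy gene 2308 nt to the left with 7 reads in all libraries together, and the lincRNA Gm14963, 3863 nt to the right with 1 read. Mir194-1 lies at chr1:187137198-187137264 and Mir215 at chr1:187137460-187137571 (plus strand), 195 nt apart. Both sit in an intron of Iars2, which encodes the mitochondrial isoleucyl-tRNA synthetase and is transcribed from the opposite strand. Iars2 was counted with 21 reads, against 12 of Mir215 and 1 of Mir194-1. Whether strands were separated in the counting is not stated, so the same reads may be counted for both. This was not tested. On either side, Rab3gap2, 26576 nt to the left, had 19 reads, and Bpnt1, 18457 nt to the right, had 6.

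**Figure D1:**
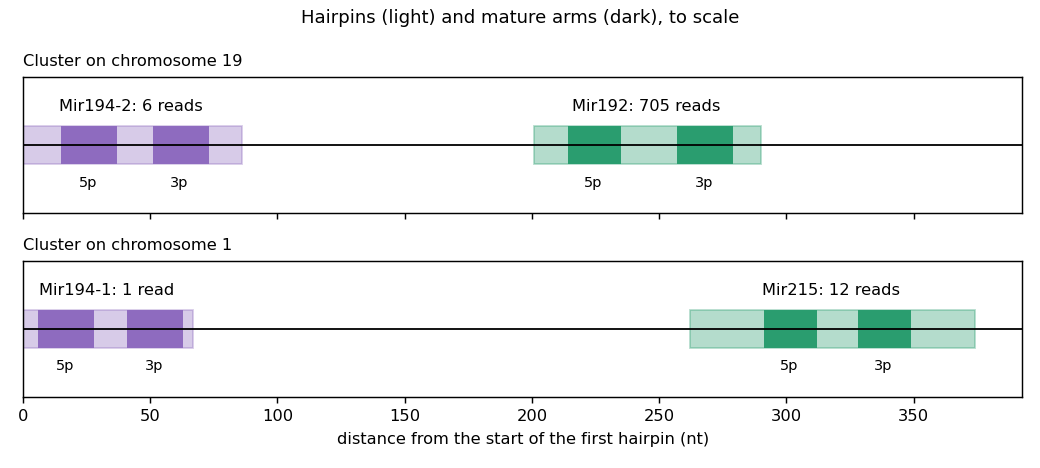
Hairpins (light boxes) and mature arms (dark boxes) of the clusters on chromosomes 19 and 1, drawn to scale as distance in nt from the start of the first hairpin, with the reads of all 12 libraries above each gene. Each cluster has a Mir194 gene first; Mir192 holds 705 reads and the other 3 genes hold 19.

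Mir192 carried nearly all reads of the family. It had 705 of 724 reads (97.4%), found in 10 of 12 libraries, against 12 reads of Mir215, 6 of Mir194-2 and 1 of Mir194-1. Levels are given as reads per 1000000 reads of a library (RPM), with 95% exact Poisson intervals that cover counting error only. Libraries held 8710 to 245184 reads, so 1 read was worth from 4.08 to 115 RPM.

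In WT, the lowest Mir192 level was 180 RPM, the median 222 and the highest 1487. Among the WT libraries, culture 2 stood apart from cultures 1 and 3. Cultures 1 and 3 gave 224, 221, 180 and 208 RPM, while both libraries of culture 2, whose titles read E14 2 and name no genotype, gave 1487 RPM (interval 953 to 2212, 24 reads) and 1305 RPM (1123 to 1509, 183 reads). The pooled level of the E14 2 libraries was 6.17 times that of the other WT libraries (interval of the ratio 4.93 to 7.75).

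In Dnmt1 KO, Mir192 stood at 1965 RPM (1645 to 2329, 133 reads) in library A and 2165 RPM (1896 to 2462, 233 reads) in library B. Both were higher in RPM than every WT library, although their intervals overlap that of WT 2A. On the scaled log2 values used for the test, WT 2A (11.80) was above Dnmt1 KO A (11.39) and B (11.48). The mean was 2065 RPM ± 141 (SD, n = 2) against 604 ± 616 (SD, n = 6) in WT, a ratio of means of 3.42. That ratio was 9.91 against the 4 WT libraries without E14 2 and 1.48 against E14 2 alone.

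The 4 Dicer/Dnmt1 KO libraries held 2 Mir192 reads together. Library 1A had 1 read (40.8 RPM), 2A had 1 read (15.8 RPM), and 1B and 2B had none. The 0 in 2B allows up to 19.9 RPM, well under every WT library. The 0 in 1B allows up to 344 RPM, so a level like that of WT cultures 1 and 3 was not detectable at its depth of 8710 reads. Over pooled reads, WT was 54.6 times higher (15 to 453) and Dnmt1 KO 258 times higher (71.0 to 2140) than Dicer/Dnmt1 KO. By means of library RPM these ratios were 42.7 and 146. The intervals show how little 2 reads fix the ratio, and the one for Dnmt1 KO is no test, since the family was chosen on that contrast.

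**Figure D2:**
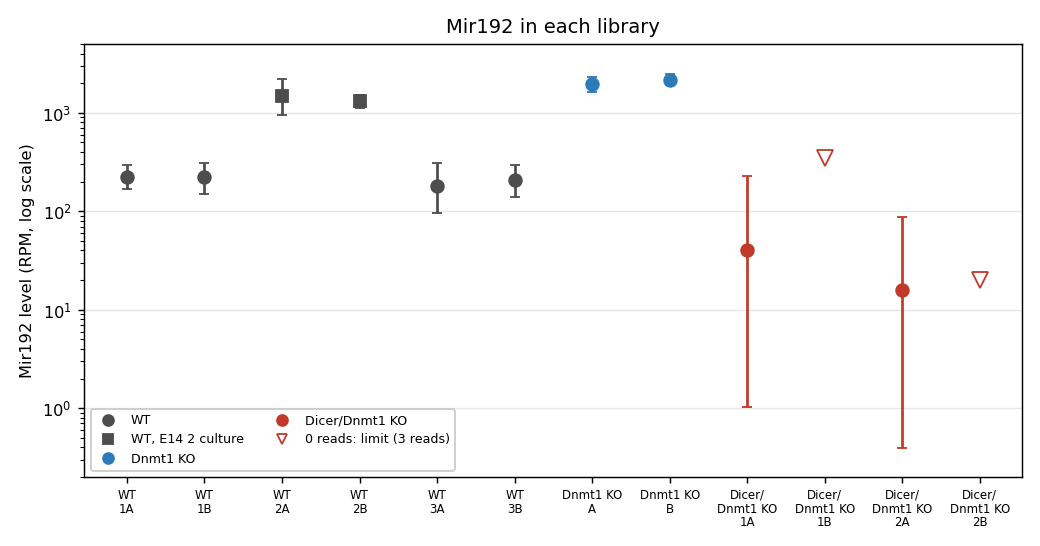
Mir192 level in RPM (log scale) in each of the 12 libraries, with 95% Poisson intervals; open triangles mark libraries with 0 reads at the level of 3 reads. The E14 2 libraries (squares, 1487 and 1305 RPM) lie near the Dnmt1 KO libraries (1965 and 2165 RPM), and the other WT libraries lie between 180 and 224 RPM.

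A read can be counted over several features, as in WT 1B with 181772 counted reads from 145026 library reads. With such repeats included, the share of miRNAs among all counted reads moved with the same groups. It was 29.5 to 34.0% in WT cultures 1 and 3, 65.8 and 45.3% in E14 2, and 53.4 and 51.4% in Dnmt1 KO. The Dicer/Dnmt1 KO libraries had 6.55 to 12.7%. Mir192 was therefore also measured per 100000 miRNA reads. It then stood at 50.0 to 77.3 in the WT libraries without E14 2, at 214 and 258 in E14 2, and at 300 and 345 in Dnmt1 KO. The 4 Dicer/Dnmt1 KO libraries stood at 34.0, 0, 15.4 and 0. On this scale the order of the groups was the same and the distances were smaller. Dnmt1 KO was 1.30 times (1.09 to 1.55) the pooled level of E14 2 and 5.16 times (4.21 to 6.35) that of the other WT libraries. Dicer/Dnmt1 KO was below the WT libraries without E14 2 by a factor of 6.59 (1.79 to 55), an interval that covers counting error only. It was below WT as a whole by a factor of 12.2 (3.35 to 101), and below Dnmt1 KO by a factor of 34.0 (9.35 to 282), again as a description.

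Differences were tested with limma on log2(scaled RPM + 10) over 683 features, of which 133 were miRNAs, with Benjamini-Hochberg adjustment. Of the 4 family members, 1 (Mir192) passed the filter on low values. In Dnmt1 KO against WT, limma called 6.59% of the tested features higher and 0.293% lower, and 0 of 1 tested member. Mir192 differed by 2.51 (SE 1.08) on the log2 scale, with an unadjusted p of 0.0369 and an adjusted p of 0.238, while the median over all 133 miRNAs was 1.40. This result rested on the E14 2 libraries. Without both of them the difference was 3.56 (adjusted p = 0.00162), without WT 2A alone 3.10 (adjusted p = 0.0280), and against E14 2 alone 0.07 (adjusted p = 0.964). The Dnmt1 KO libraries are also those of the contrast that chose the family, so these p-values are no independent support. With A and B summed to 1 value per culture, limma gave Mir192 a difference of 2.59 (adjusted p = 0.458) here and -4.54 (adjusted p = 0.0228) in Dicer/Dnmt1 KO against WT.

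In Dicer/Dnmt1 KO against WT, limma called 5.12% of the features higher and 19.0% lower. Mir192 was lower by a log2 difference of -4.91 (SE 0.86, adjusted p = 0.000496), the 29th lowest of 683. Of the 133 miRNAs, 81 were called lower and 16 higher, with a median of -2.75. This contrast has the Dicer/Dnmt1 KO libraries in common with the one that chose the family, so it is no independent support. In Dicer/Dnmt1 KO against Dnmt1 KO, 1.17% of the features were called higher and 21.7% lower, with 99 of 133 miRNAs lower, none higher and a miRNA median of -4.17. Mir192 differed there by -7.42 (SE 1.15), the 2nd lowest of 683, which is the value it was chosen on.

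**Figure D3:**
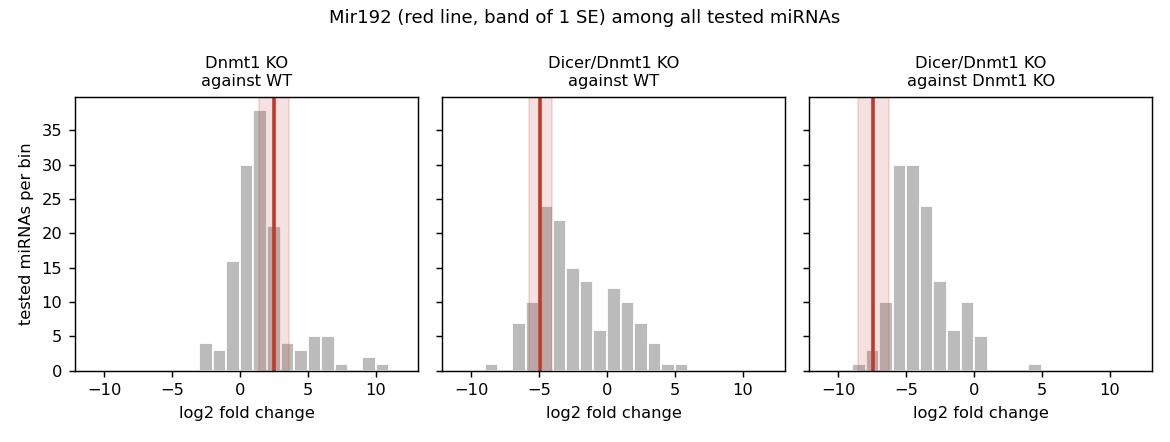
Number of the 133 tested miRNAs per bin of log2 fold change in the 3 contrasts, with Mir192 as a red line and its SE as a band. Mir192 lies at 2.51, -4.91 and -7.42, against miRNA medians of 1.40, -2.75 and -4.17.

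Mir215, which shares the seed of Mir192, had at most 6 reads in any library. It had 1 read in WT 2B (7.13 RPM) and 0 in the other 5 WT libraries. Dnmt1 KO B had 6 reads (55.8 RPM, interval 20.5 to 121), whereas Dnmt1 KO A had 0, which allows up to 44.3 RPM. Libraries 1A, 1B, 2A and 2B of Dicer/Dnmt1 KO had 1, 0, 2 and 2 reads (40.8, 0, 31.5 and 13.3 RPM). Its pooled level was 1.31 RPM in WT (0.0332 to 7.31), 34.2 RPM in Dnmt1 KO (12.6 to 74.5) and 20.2 RPM in Dicer/Dnmt1 KO (6.56 to 47.2). The intervals of Dnmt1 KO and WT do not overlap, but 1 library holds all 6 Dnmt1 KO reads. Mir215 had more reads (5) than Mir192 (2) in Dicer/Dnmt1 KO. Iars2, on the opposite strand around it, had 8 reads in those libraries, and its part in the Mir215 reads was not tested.

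The Mir194 genes were close to the limit of detection everywhere. Mir194-2, the neighbour of Mir192, had 4 reads in WT 1A (16.3 RPM), 1 in WT 2B (7.13 RPM) and 1 in Dnmt1 KO A (14.8 RPM), with 0 in the other 9 libraries. Mir194-1, the neighbour of Mir215, had 1 read in Dnmt1 KO A (14.8 RPM) and 0 in 11 libraries. The Mir194 reads were too few to tell whether they followed Mir192. E14 2 had 207 Mir192 reads and 1 Mir194 read, and Dnmt1 KO had 366 and 2. Among the other WT libraries, 1A had 55 and 4, 1B had 32 and 0, 3A had 13 and 0, and 3B had 30 and 0. Over the group, 0 reads in Dicer/Dnmt1 KO allow up to 12.1 RPM for each Mir194 gene, above the pooled WT level of Mir194-2 (6.56 RPM), so a change could not be detected at this depth.

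**Figure D4:**
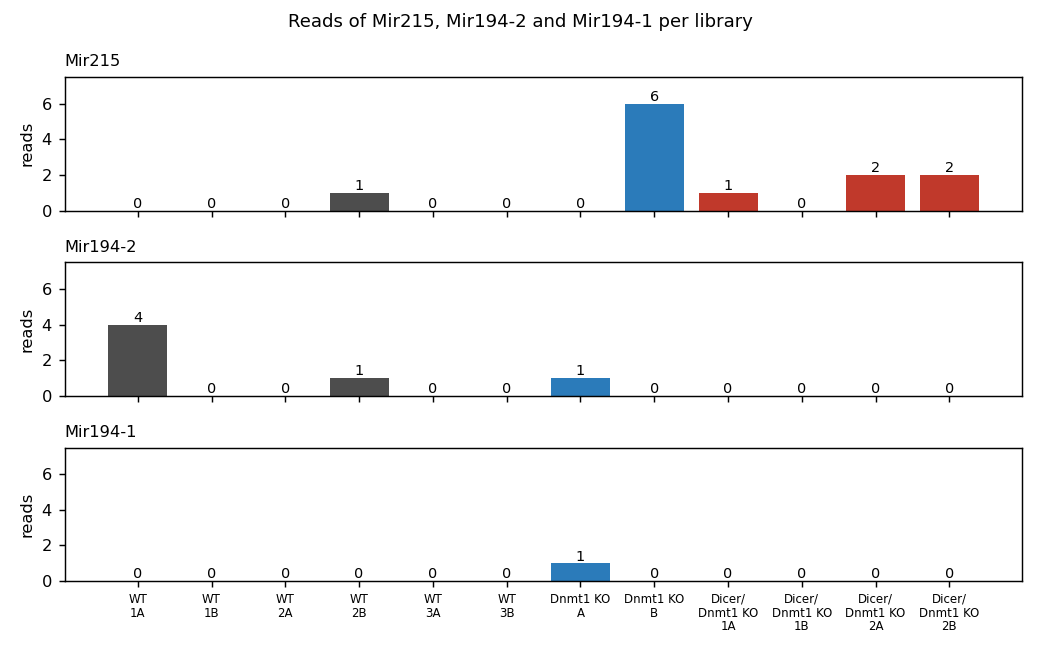
Reads of Mir215, Mir194-2 and Mir194-1 in each library, in WT (grey), Dnmt1 KO (blue) and Dicer/Dnmt1 KO (red). The highest value is 6 reads, for Mir215 in Dnmt1 KO B.

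With the members set side by side, the mean levels in WT were 604 RPM for Mir192, 3.91 for Mir194-2, 1.19 for Mir215 and 0 for Mir194-1. In Dnmt1 KO they were 2065 RPM for Mir192, 27.9 for Mir215 and 7.39 for each Mir194 gene. For Dicer/Dnmt1 KO they were 21.4 RPM for Mir215 and 14.1 for Mir192, with both Mir194 genes at 0. Mir192 was thus first in WT and Dnmt1 KO, beyond counting error. The order of the other members, and that of Mir215 and Mir192 in Dicer/Dnmt1 KO, could not be told apart from counting error.

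The miRNAs whose levels followed Mir192 most closely over the 12 libraries were Mir151 (Pearson r = 0.988), Mir425 (0.988), Mir186 (0.987), Mir148a (0.977) and Mir335 (0.974), chosen by r among 132 tested miRNAs. A high r was common, with a median of 0.787 and 34 miRNAs over 0.9, since the points share their libraries, and the miRNAs of Dicer/Dnmt1 KO are low together. Over the 8 libraries of WT and Dnmt1 KO, r was 0.968 to 0.989 for these 5. They were chosen on r over libraries that include these 8, so a high value is no separate support. The r of the other miRNAs over these 8 libraries was not computed. Mean levels of Mir151 were 1372 RPM in WT without E14 2, 8248 in E14 2, 10883 in Dnmt1 KO and 433 in Dicer/Dnmt1 KO. The level in E14 2 was 6.01 times that in the other WT libraries for Mir151, 3.75 times for Mir186, 3.16 times for Mir425, 2.02 times for Mir148a and 1.92 times for Mir335. With 10 RPM added to each mean, Mir192 ranked 5th of 133 tested miRNAs by this ratio (6.44, against a median of 0.940).

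**Figure D5:**
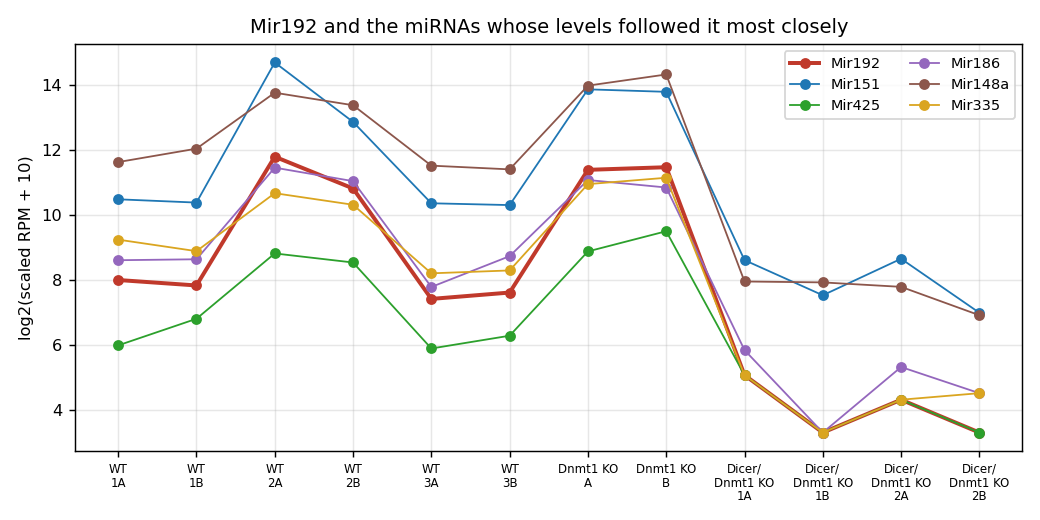
log2(scaled RPM + 10) of Mir192 and the 5 miRNAs most correlated with it, by library; lines join libraries for reading only. All 6 are higher in WT 2A, WT 2B and Dnmt1 KO than in the other WT libraries, and lowest in Dicer/Dnmt1 KO.

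Lists of related miRNAs were set beside the family. Of 9 p53-linked miRNAs, 3 were tested, and limma called 1 higher in Dnmt1 KO against WT, 2 lower in Dicer/Dnmt1 KO against WT and 3 lower in Dicer/Dnmt1 KO against Dnmt1 KO. Their median log2 differences were 2.14, -1.77 and -3.69, against 0.13, -0.09 and -0.16 over all features tested and 1.40, -2.75 and -4.17 over the 133 miRNAs. Of those 133 miRNAs, 28 were called higher in the first contrast, and 81 and 99 were called lower in the other two. The one called higher was Mir141, a miR-200 family member that also stands in the next list (2.59, adjusted p = 0.00662). Mir34a, a direct p53 target, differed by 2.14 (SE 1.11, adjusted p = 0.328) in that contrast, and was called lower in Dicer/Dnmt1 KO against Dnmt1 KO by -3.69 (adjusted p = 0.0358), while Mir34c fell in both Dicer/Dnmt1 KO contrasts (-1.77 and -2.54).

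Of 16 epithelial and endodermal miRNAs, 10 were tested. limma called 1 higher in Dnmt1 KO against WT (Mir141 again) and 7 lower in each contrast with Dicer/Dnmt1 KO, with medians of 1.30, -3.98 and -5.09. These stand beside the same 28, 81 and 99 of 133 miRNAs and the miRNA medians of 1.40, -2.75 and -4.17. Mir200b, which restrains the mesenchymal factors ZEB1 and ZEB2, differed by -5.49 against WT (adjusted p = 7.77e-07) and -6.69 against Dnmt1 KO. Mir148a, abundant in liver, differed by -4.64 and -6.50, Mir96 by -4.54 and -5.02, and Mir200a by -4.26 and -4.59. Of 15 miRNA biogenesis genes, 9 had reads, at most 30 each, and none could be tested, so the table holds no check of Dicer1 itself.

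Summed markers were read as RPM. ESC miRNAs (the Mir290 and Mir302 clusters, 12 of 12 with reads) were at 67916 to 93275 in WT without E14 2, 28683 to 57573 in E14 2 and 55926 to 99648 in Dnmt1 KO. Dicer/Dnmt1 KO libraries were at 1221 to 3797. Fibroblast or feeder miRNAs (11 of 12 with reads) were at 9862 to 12806, 12576 to 15492, 41313 to 49207 and 12541 to 40802 in the same order. They were higher in Dnmt1 KO than in every WT library, while E14 2 overlapped the other WT libraries. Dicer/Dnmt1 KO 1A (24499), 1B (22273) and 2A (40802) were also above every WT library, and 2B (12541) was not. Whether fibroblast or feeder cells had a part in the Mir192 level of Dnmt1 KO was not tested. The same holds for the Mir192 and Mir215 reads left in Dicer/Dnmt1 KO. Liver and gut miRNAs had reads for 2 of 4 (Mir375 and Mir31), with the hepatocyte marker Mir122a and with Mir802 at 0 in every library. Their summed level was at 285 to 421, 124 to 264, 236 to 400 and 81.7 to 1104, so their ranges in E14 2 and Dnmt1 KO did not lie above that of the other WT libraries. In bulk libraries, fewer cells with a miRNA and less of it per cell cannot be told apart.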

How the data were processed

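Small RNA reads were, according to the submitters' processing notes and the published methods, trimmed by the authors (Trim Galore 0.3.5), kept at 20 to 24 nt, aligned to NCBIM37 (Bowtie2 2.2.6) and counted over features in SeqMonk. The deposited values are log2 RPM, scaled by the authors to each library's reads, with 0 written as 0.9 read. Whole reads were recovered for 100% of values (tolerance 0.01), and 89 value columns of no sample were not used. Since the values are on a log2 scale, limma was used.

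Groups followed the genotype labels. RPM were scaled by trimmed means of log ratios and log2(RPM + 10) was fitted in 1 limma (3.58.1, R 4.3.3) model of all 12 libraries, for features with at least 111 RPM in 2 libraries and 15 reads in all. This fold change understates low genes. The threshold was an adjusted p of 0.05, and the method was tested on simulated data. Named genes were the family, its neighbours, the 5 miRNAs most correlated with Mir192, at most 6 called members per list, and summed markers. The members and lists were chosen with earlier results of these data known. A and B libraries differed by more than sampling noise in all 6 pairs (chi-square per degree of freedom 9.08 to 24.7) so none was treated as a repeated deposit of 1 library. Repeat libraries of 1 RNA can differ as much, so this does not make A and B separate cultures. Alternatives changed the pseudocount, filter, scaling, model and libraries.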

Additional observations from a re-analysis of the deposited data

Results flagged for a closer look

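Mir215 in WT was marked because 1 library stands far from the other 5: WT 2B had 7.13 RPM, which is 1 read, and the others had 0. With 5 libraries at 0, any read in the remaining library leads to this mark, and a single read carries no information beyond its own counting error.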

How the results depend on the processing

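The fall of Mir192 in Dicer/Dnmt1 KO against WT kept its direction and its call under all 25 alternatives run. In Dnmt1 KO against WT, the Mir192 estimate was positive in all 24, but against E14 2 alone it was only 0.07 (SE 0.79). Mir192 was called only in 2: without both E14 2 libraries (3.56) and without WT 2A. Leaving out 1 library at a time gave 2.23 to 3.10. In Dicer/Dnmt1 KO against Dnmt1 KO it was -9.40 with a pseudocount of 1, -5.60 with 50 and -5.02 with miRNA reads as the library total.

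The number of features called in Dnmt1 KO against WT was 47. It was 31 with a pseudocount of 1, 80 with voom, 181 without both E14 2 libraries, 12 with A and B summed, 30 with culture as a random block, 20 against E14 2 alone, 17 with miRNA reads as the library total, and 15 to 97 when 1 library was left out (97 without WT 2A, 15 without either Dnmt1 KO library).

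Scaling changed the balance of calls. Scaling to miRNA reads, like the comparison with E14 2 alone, was chosen after seeing the data. It called 513 features in Dicer/Dnmt1 KO against WT (437 higher, 76 lower) and 475 against Dnmt1 KO (415 higher, 60 lower), in place of 165 (35 higher, 130 lower) and 156 (8 higher, 148 lower), because dividing by miRNA reads raises the median of all features by 2.73 and 3.34 on the log2 scale. Library reads alone gave 84 higher and 116 lower, and 24 higher and 127 lower, with medians shifted by 0.70 and 0.91. Relative to the median of all features, Mir192 differed by -4.81 in the main scaling, -5.02 with library reads and -5.93 with miRNA reads in Dicer/Dnmt1 KO against WT.

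Names 1A to 2B are common to WT and Dicer/Dnmt1 KO. Deviations of libraries with the same name correlated by -0.23, 0.11, -0.17 and -0.28, which gave no sign that the names pair the libraries. Counting noise in the shallow libraries could hide a pairing, so it is not excluded. With a replicate block, 117 features were called and Mir192 differed by -5.50 (limma adjusted p = 0.00211). Depth limits Mir194-1, Mir194-2 and Mir215, and Dicer/Dnmt1 KO 1B.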
